A study of Mus musculus with 4 samples.

Results

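The genes described here are 10 sialyltransferase genes of the mouse: St8sia6, St8sia1 and St8sia4, St3gal1, St3gal2, St3gal4 and St3gal6, St6gal1, and St6galnac4 and St6galnac6. They were picked from the results of these arrays, because St8sia6 showed a large and steady difference between the genotypes, so every genotype difference of these genes is given as a description without a test. The array names 18193 genes, and 20 of them are sialyltransferases, of which these are 10. All 24 probe sets that the platform annotation assigns to one of the 10 genes alone were read, and 22 of them passed the filter on dim signals.

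Sialyltransferases are Golgi enzymes that take sialic acid from its activated form, CMP-sialic acid, and place it at the outer ends of the sugar chains of glycoproteins and glycolipids. The first part of a name tells the acceptor: St3gal and St6gal enzymes add sialic acid to galactose, St6galnac enzymes to N-acetylgalactosamine, and St8sia enzymes to a sialic acid that is already there. On lymphocytes these caps shield or create the ligands of galectins, selectins and Siglecs, and the pattern of caps changes when T cells go from rest to activation.

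The RNA came from CD4+Foxp3+ Treg cells of the mouse spleen, the T cells that restrain immune responses, strain C57BL/6. Of the 4 arrays 2 are titled wild-type and 2 Foxo1/3-deficient, and the titles number them as pair 1 and pair 2, with 1 array of each kind in a pair. In the field for genotype, the samples titled deficient are listed as lacking Foxo1 only. The sources used here do not give the promoter that drove the deletion, the age of the animals or whether RNA was pooled. Foxo1 and Foxo3 are transcription factors that hold T cells in a resting, recirculating state.

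The 4 arrays shared a trimmed mean signal of 500.003, and Pearson r between any 2 of them over all probe sets, on the log2 scale, was 0.960 to 0.972. The Foxo1 signal went against the label: its brightest probe set read 2383 and 1254 in wild-type cells against 6949 and 6697 under the deficient label. Foxo3 read 1876 and 2635 against 1424 and 1308. Directions below are therefore those of the arrays as labelled. The sources used here do not say where these probe sets lie relative to the deleted parts. The Treg markers Foxp3, Ikzf2 and Ctla4 were bright on all 4 arrays, with 6056 as the lowest Foxp3 signal.

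St8sia6 encodes an enzyme that adds a further sialic acid to sialylated chains, mainly O-glycans, and its products can serve as ligands for Siglecs. Its brightest probe set (1456147_at) read 177 and 172 on the wild-type arrays of pair 1 and pair 2, and 6257 and 6453 on the arrays labelled deficient. Both wild-type values were low and nearly equal, and both labelled-deficient values were high and nearly equal. The signal was 35.3-fold higher in pair 1 and 37.6-fold higher in pair 2. On the log2(signal + 17) scale used for all differences here, where 17 is a small constant that damps noise in dim signals, the mean difference was 5.06 ± 0.22 (SE from limma, n = 2 arrays per label). The groups stood at 175 ± 3.81 and 6355 ± 138 (SD, n = 2).

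The other St8sia6 probe sets went the same way with less agreement between the pairs. One of them (1456440_s_at) read 76.1 and 111 in wild-type cells against 3179 and 2739 under the deficient label, ratios of 41.7 and 24.7 in pairs 1 and 2. The other (1438566_at) read 75.6 and 79.7 against 1888 and 1195, so the pair 1 ratio was the larger here too. On both, the labelled-deficient array of pair 1 was the brighter of its group, while on the brightest probe set it was the dimmer one. The platform annotation gives these 2 probe sets the same sequence accession, so they are not independent readings. Only 8 genes were at least 8-fold higher within both pairs on the log2(signal + 17) scale. The 2 pair differences of St8sia6 lay 0.08 apart on its brightest probe set, where the median gap of the 8 genes was 0.25. On its other probe sets the pair differences were 5.10 and 4.43 (1456440_s_at), and 4.36 and 3.65 (1438566_at). St8sia6 was picked for its steadiness, so nothing is read from the gap.

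The region before the St8sia6 start is shown because it belongs to the gene with the largest difference and because FoxO factors are known to bind the motif GTAAACA. The sequence is from RefSeq on GRCm38.p6, covers the 250 bases before the start at chr2:13793521-13793770 on the minus strand, and is written 5′ to 3′ along the gene.
St8sia6: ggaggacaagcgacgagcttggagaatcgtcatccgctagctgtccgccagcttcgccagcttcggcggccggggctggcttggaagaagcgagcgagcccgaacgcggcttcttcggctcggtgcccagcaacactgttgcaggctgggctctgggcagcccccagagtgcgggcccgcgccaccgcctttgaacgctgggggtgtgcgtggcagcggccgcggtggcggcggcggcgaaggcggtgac
Its G and C bases made up 70.8%, against a median of 52.4% over all RefSeq windows of this kind. In the windows of the other genes described here the share ran from 34.8% (a St3gal6 window) to 72.8% (St3gal4). Windows of 300 bases, 250 before and 50 after the start, were searched for GTAAACA and for CAAAACA on both strands. RefSeq held 11 such windows for 8 of the 10 genes. St8sia6 had neither motif in its window, which says only that these letters are not there.

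The single match among the 11 windows was in St6galnac6, a gene with lower signals on the labelled-deficient arrays. It is printed here with the motif, which lies on the opposite strand and starts 55 bases before the gene start, in capitals (GRCm38.p6, chr2:32599643-32599672, plus strand).
St6galnac6: tctgggtgaggTGTTTACtgctgggttggc
Of all 32851 windows, 3.65% held GTAAACA and 6.28% held CAAAACA on either strand. A match is a description of letters, not a binding site.

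**Figure D1:**
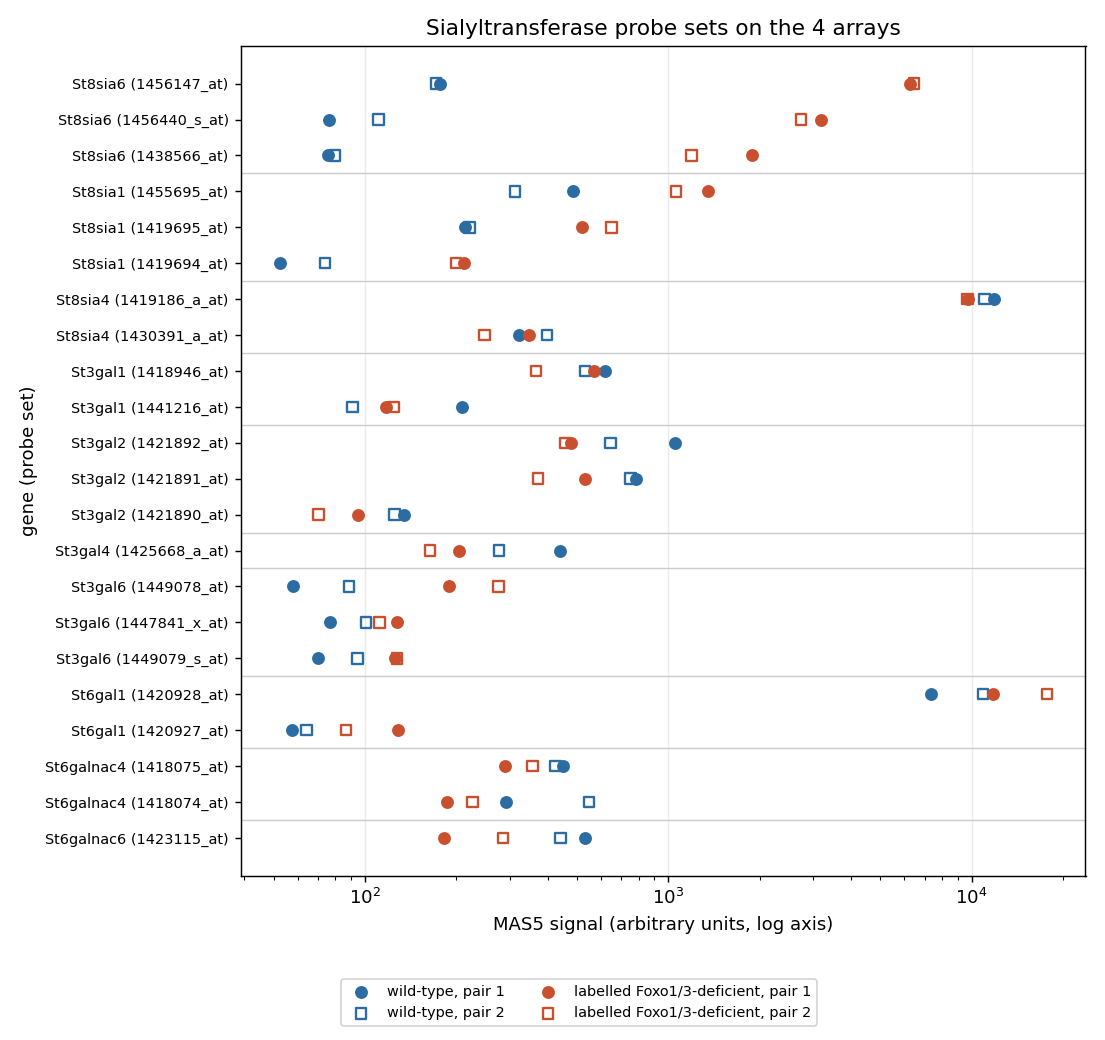
MAS5 signals (log axis) of the 22 sialyltransferase probe sets that passed the filter, with 1 row per probe set and 1 point per array; blue is wild-type, red is labelled Foxo1/3-deficient, filled circles are pair 1 and open squares pair 2. The 3 St8sia6 rows have red points from 1195 up and blue points up to 177; in 11 rows both red points lie above both blue points, in 8 rows below, and in 3 rows the labels overlap.

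St8sia1 encodes GD3 synthase, which adds a sialic acid to the ganglioside GM3. Its brightest probe set read 485 and 312 in wild-type cells against 1350 and 1062 under the deficient label. Every labelled-deficient value was above every wild-type value, and the signal was 2.79-fold higher in pair 1 and 3.40-fold higher in pair 2 (log2 difference 1.58 ± 0.30, SE). The other St8sia1 probe sets gave the same direction, with ratios of 2.43 and 2.93 on one and of 4.05 and 2.70 on the other.

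St3gal6 makes sialylated ends that can become part of selectin ligands. Its brightest probe set was dim on the wild-type arrays, at 58.0 and 88.6, and read 189 and 276 on the labelled-deficient arrays. The groups did not overlap, and the ratios in the pairs were 3.26 and 3.11 (log2 difference 1.46 ± 0.36, SE). The difference was smaller on its other measured probe sets, with ratios of 1.67 and 1.11 on one and 1.79 and 1.35 on the other. The remaining 2 of its 5 probe sets were under the filter, with no signal above 10.2.

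St6gal1 is the main enzyme that caps N-glycans with sialic acid in the linkage that CD22 recognises. Its signal was 7330 and 10894 in wild-type cells against 11752 and 17741 under the deficient label. Each labelled-deficient array was above its own wild-type partner by a like amount, 1.60-fold in pair 1 and 1.63-fold in pair 2 (log2 difference 0.69 ± 0.26, SE; 0.39 without labelled-deficient replicate 2 and 0.41 without wild-type replicate 1). The labelled-deficient array of pair 1 and the wild-type array of pair 2 were close to each other, so the labels barely separated without regard to the pair. A second, dim probe set read 57.4 and 64.2 against 128 and 86.7. St6gal1 is also strongly expressed in B cells, so B cell markers are given beside it further on.

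The genes described next had lower signals on the labelled-deficient arrays. St3gal2 adds sialic acid to the galactose of core O-glycans and gangliosides. It read 1055 and 645 in wild-type cells against 479 and 457 under the deficient label, 2.20-fold lower in pair 1 and 1.41-fold lower in pair 2. Its other probe sets were 1.47-fold and 2.02-fold lower on one and 1.42-fold and 1.78-fold lower on the other, so the pair with the larger difference was not the same between probe sets. The mean log2 difference on the brightest one was -0.80 ± 0.30 (SE), and -0.45 without wild-type replicate 1.

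St3gal4, which helps to build selectin ligands, has 1 probe set. It read 440 and 277 in wild-type cells against 205 and 164 under the deficient label, and the groups did not overlap (log2 difference -0.87 ± 0.33, SE; -0.55 without wild-type replicate 1). St6galnac6, which adds a branch sialic acid to gangliosides, also has 1 probe set. It read 532 and 442 against 182 and 285, 2.93-fold lower in pair 1 and 1.55-fold lower in pair 2 (log2 difference -1.03 ± 0.31, SE). Of the 10 genes, St6galnac6 had the lowest difference.

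St6galnac4, which adds the branch sialic acid of sialylated core O-glycans, read 450 and 424 in wild-type cells against 291 and 357 under the deficient label (log2 difference -0.42 ± 0.27, SE; -0.28 without labelled-deficient replicate 1). On its second probe set the values were 292 and 549 against 186 and 227, 1.57-fold lower in pair 1 and 2.42-fold lower in pair 2. Both probe sets had all labelled-deficient values below all wild-type values.

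The remaining genes differed least. St8sia4, a polysialic acid synthase, read 11869 and 11032 in wild-type cells against 9718 and 9684 under the deficient label. The groups did not overlap, but the signal was lower by only 1.22-fold and 1.14-fold (log2 difference -0.24 ± 0.16, SE), and on its other probe set the pairs went opposite ways, with ratios of 1.08 and 0.622. St3gal1, which caps the core O-glycans of T cell proteins such as CD43 and CD8, read 620 and 533 in wild-type cells against 569 and 366 under the deficient label. Here the labels overlapped (log2 difference -0.32 ± 0.30, SE), and the difference ran from -0.63 without labelled-deficient replicate 1 to -0.0153 without labelled-deficient replicate 2. Its other probe set was lower in pair 1 and higher in pair 2, with ratios of 0.558 and 1.36.

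**Figure D2:**
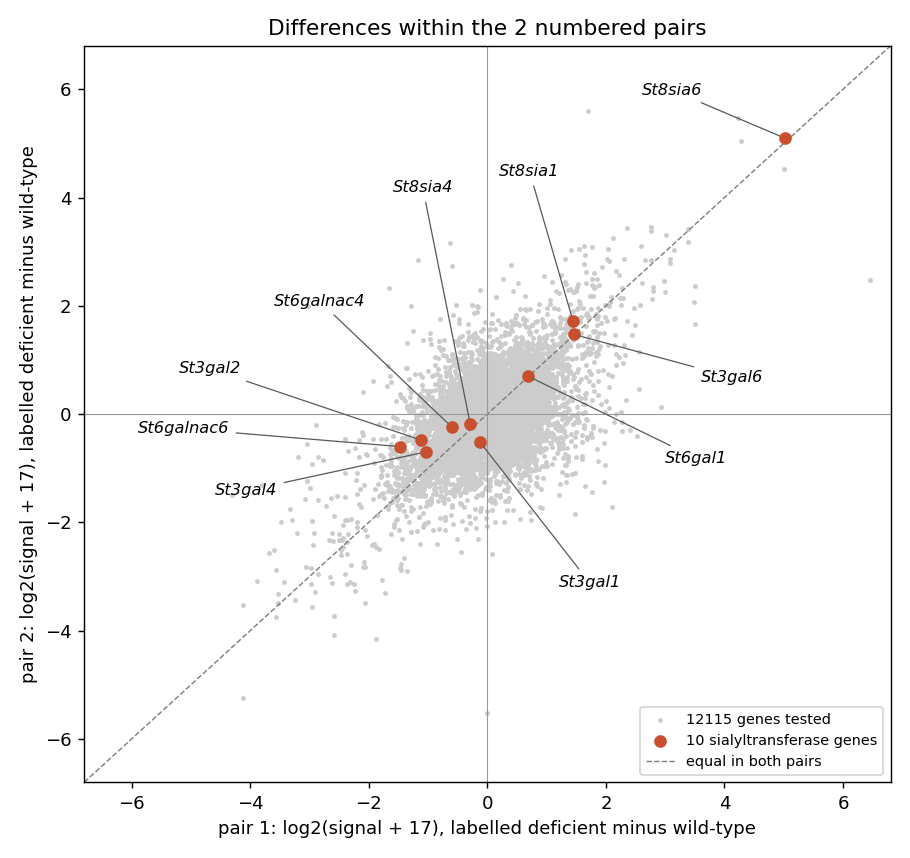
Difference between the labelled-deficient and the wild-type array within pair 1 (horizontal axis) and within pair 2 (vertical axis), each as log2(signal + 17), for the 12115 genes tested (grey) and the 10 sialyltransferase genes (red, brightest probe set); the dashed line marks equal differences. St8sia6 lies at 5.01 and 5.10, St8sia1, St3gal6 and St6gal1 lie up and to the right of 0, and the other 6 lie down and to the left.

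Of the 10 genes, 4 were higher on both labelled-deficient arrays than on both wild-type arrays, 5 were lower on both and 1 overlapped; over all 12115 genes tested, 20% were higher and 21.1% lower in this sense. At least 2-fold higher within both pairs were 3 of the 10, against 2.06% of all genes, and 0 were at least 2-fold lower within both, against 2.32%. The median absolute log2 difference was 0.83 over the 10 genes and 0.24 over all genes. These genes were chosen from this comparison, so nothing is read from the counts.

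The contrast between the pairs was tested with genotype in the model for the genes other than St8sia6, whose steadiness over the pairs was part of the choice. For St6gal1 both pair 2 arrays exceeded their pair 1 counterparts, 10894 against 7330 on the wild-type and 17741 against 11752 on the labelled-deficient arrays, or 0.58 ± 0.16 on the log2 scale (SE; adjusted p = 0.0381 by limma). It was the only one of these 9 genes past the threshold, where 6.78% of all genes tested were, 2.96% with higher and 3.81% with lower values in pair 2. St8sia1 was lower in pair 2, by -0.47 ± 0.20 (adjusted p = 0.176), and St8sia6, given with no test, differed by 0.00 ± 0.17. The other 7 genes lay between -0.47 and 0.50, with adjusted p values from 0.309 to 0.900. The St6gal1 call was lost without the filter (adjusted p = 0.116), without the intensity trend (0.303) and on the mean of its 2 probe sets (log2 0.20), and the dim probe set alone gave -0.18 (0.863). No array could be left out of this test, since no residual degrees of freedom would remain.

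**Figure D3:**
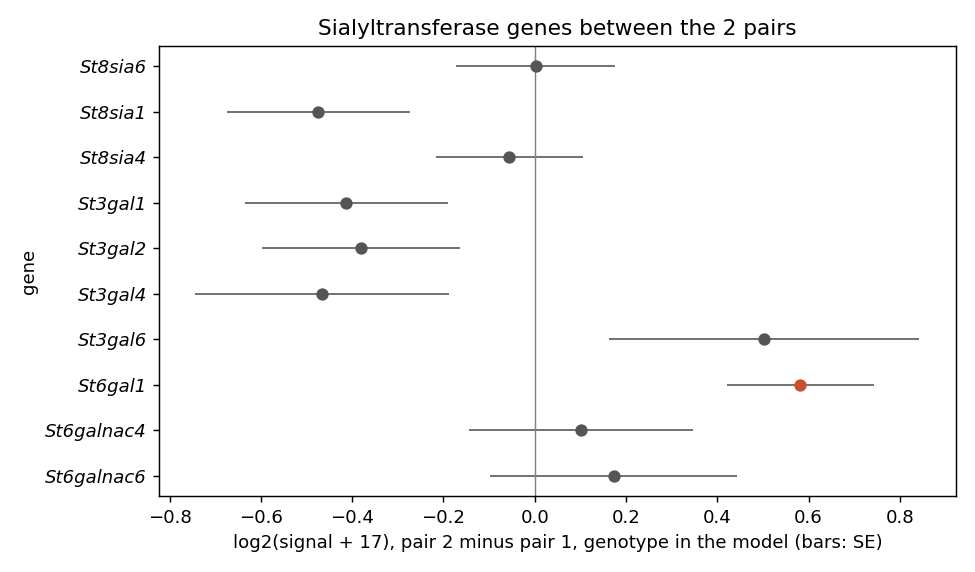
Difference between pair 2 and pair 1 for each of the 10 sialyltransferase genes, as log2(signal + 17) with genotype in the model; bars are SE from limma over the 4 arrays and red marks an adjusted p under 0.05. St6gal1 lies at 0.58, past the threshold, while St8sia6, given with no test, lies at 0.00.

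B cell markers were measured beside St6gal1, since the RNA came from spleen. The summed signal of the 7 markers named on the array was 14155 and 10737 in wild-type cells against 14242 and 18838 under the deficient label, and Ighm, the heavy chain gene of IgM, made up most of it. Of 6 markers tested, 0 passed between genotypes (0 at an unadjusted p under 0.05 by limma, 1 past the threshold with the pair as a block). Of all genes tested 2.57%, 13% and 11.6% did so. All 6 log2 differences were above 0, with a median of 0.37. Within pair 1, Cd79a, Cd79b and Ighm were lower on the labelled-deficient array, with ratios of 0.826, 0.834 and 0.972. Within pair 2 these genes were higher, with ratios of 2.65, 1.90 and 1.72. The other tested markers were higher in both pairs. Ms4a1, which encodes CD20, read 1081 and 423 against 1611 and 998. Between the pairs 3 of the 6 were called, where 6.78% of all genes tested were. All 3 were lower in pair 2: Ms4a1, Cd79a and Cd79b, with limma adjusted p values of 0.00562, 0.0187 and 0.0187. Ighm, the brightest, went from 11620 in pair 1 to 9839 in pair 2 among wild-type arrays and from 11293 to 16923 among labelled-deficient ones (log2 0.17, adjusted p = 0.686). Of 8 T and Treg cell markers, Cd4 and Cd3e were called, both lower in pair 2 (log2 -0.84 and -0.81, limma adjusted p = 0.00566 and 0.00466). The others were not called. Foxp3 stood at -0.08, while Cd3g (0.53), Tnfrsf18 (0.48), Ikzf2 (0.22), Il2ra (0.20) and Ctla4 (0.13) were higher in pair 2. The B cell marker Pax5 was dim and under the filter, at 17.7 and 7.41 in wild-type cells against 44.7 and 40.2 under the deficient label. Summed myeloid markers stood at 7098 and 4570 in wild-type cells against 9676 and 7305 under the deficient label. Csf1r made up most of each sum. Of 6 tested 0 were called (2 at an unadjusted p under 0.05 by limma, 2 with the block, where 13% and 11.6% of all genes were). Their log2 differences ran from -0.19 to 1.03, with 4 above 0 and 2 below. Summed natural killer cell markers stood at 115 and 65.4 against 77.9 and 52.1, with 0 of 3 above the filter, and summed CD8 T cell markers at 518 and 367 against 423 and 663. The part of these cells in the sialyltransferase values was not tested, and in bulk RNA fewer cells of a type and less RNA per cell cannot be told apart.

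The genes whose 4 values ran most like those of St8sia6, by the distance between centred log2(signal + 17) values over the 4 arrays, were Prg4, Gsta4, Dapl1, Igf1r and Gbp2b. Prg4, which encodes lubricin, read 42.9 and 20.4 in wild-type cells against 1140 and 1222 under the deficient label. Gsta4, a glutathione S-transferase gene, read 16.5 and 10.1 against 1063 and 606, and Dapl1 read 28.7 and 1.71 against 838 and 809. The wild-type signals of Gsta4 and Dapl1, and that of Prg4 in pair 2, were under the filter level of 40.5, so these genes passed it through the labelled-deficient arrays and their order is not read. Igf1r, a growth factor receptor gene, lay at a distance of 1.68, and Gbp2b, a guanylate-binding protein gene, at 1.91. Pearson r over the 4 arrays ran from 0.978 to 0.996, which is a description over 4 points.

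Of the 10 other sialyltransferase genes on the array, 6 passed the filter, with log2 differences from -0.31 to 0.45. Between genotypes 0 of these 6 were called (0 at an unadjusted p under 0.05 by limma, 0 with the pair as a block). The shares of all genes tested were 2.57%, 13% and 11.6%, so 0 of 6 is near them and is not read. St3gal5, the GM3 synthase whose product St8sia1 uses, read 297 and 350 in wild-type cells against 265 and 250 under the deficient label (log2 -0.31 ± 0.28, limma adjusted p = 0.789). St6galnac3 read 536 and 364 against 399 and 926, so its pairs went opposite ways on this brightest probe set. Another probe set that passed the filter was higher in both pairs, at 98.2 and 145 against 165 and 153. St3gal3 (0.09), St6galnac1 (-0.01), St6galnac5 (-0.31) and St8sia5 (0.16) completed the measured ones. St6gal2, St6galnac2, St8sia2 and St8sia3 were under the filter, with no signal above 54.3.

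Sialyltransferases need CMP-sialic acid, made by Gne, Nans, Nanp and Cmas and carried into the Golgi by Slc35a1. Of 7 genes of sialic acid supply tested 0 were called between genotypes (2 at an unadjusted p under 0.05 by limma, 0 with the block), with a median log2 difference of 0.02. Of all genes tested 13% were at an unadjusted p under 0.05 and 11.6% were called with the block, the shares to set beside such counts here and in the lists that follow. Cmas, the enzyme that activates sialic acid and the brightest of the list, stood at 2809 ± 61.1 in wild-type and 3353 ± 344 (SD, n = 2) under the deficient label (log2 0.25 ± 0.20, limma adjusted p = 0.738). The median over all genes tested was -0.00, and 2.57% of them were called in either direction.

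A gene that changes the sialic acid itself was the one that rose in these lists. Cmah, the hydroxylase that turns CMP-N-acetylneuraminic acid into CMP-N-glycolylneuraminic acid, read 430 and 429 in wild-type cells against 3018 and 3195 under the deficient label. The groups were far apart, with ratios of 7.02 in pair 1 and 7.44 in pair 2 (log2 2.81 ± 0.22 SE, limma adjusted p = 0.00268). All of its 6 probe sets were higher on both labelled-deficient arrays, with log2 differences from 0.72 to 2.81. Cmah passed in each of 13 alternative settings, with adjusted p values between 7.65e-09 and 0.0146. Casd1 and Siae, which add and remove an acetyl group of sialic acid, stood at 0.22 ± 0.23 and -0.28 ± 0.28 (adjusted p = 0.821 and 0.814).

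Ganglioside synthesis genes, which build the lipids that St8sia1 and St3gal2 act on, had 1 member that fell. B4galt5, a galactosyltransferase that makes lactosylceramide, fell from 1349 and 1484 in wild-type cells to 518 and 589 on the labelled-deficient arrays (log2 -1.33 ± 0.23 SE, limma adjusted p = 0.0329). Its call was lost in 5 of 13 alternatives: without labelled-deficient replicate 1 (adjusted p = 0.162), labelled-deficient replicate 2 (0.0853) or wild-type replicate 2 (0.0596), and without the filter (0.0703) or the intensity trend (0.0788). Ugcg, the glucosylceramide synthase gene, read 1056 and 534 in wild-type cells against 2293 and 1774 under the deficient label (log2 1.40 ± 0.34, adjusted p = 0.0868, and 3.84e-05 with the pair as a block). B4galnt1, which extends gangliosides, read 3446 and 1956 against 6184 and 3117 (log2 0.75 ± 0.38, adjusted p = 0.486, and 0.00248 with the block). On this brightest probe set it was lower in pair 2 than in pair 1 (log2 -0.90, limma adjusted p = 0.00220). Its other probe set read 110 and 149 against 133 and 114, so there the pairs went opposite ways (log2 -0.05). Of the 5 genes tested 1 fell and 0 rose, and with the block 2 rose and 1 fell.

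**Figure D4:**
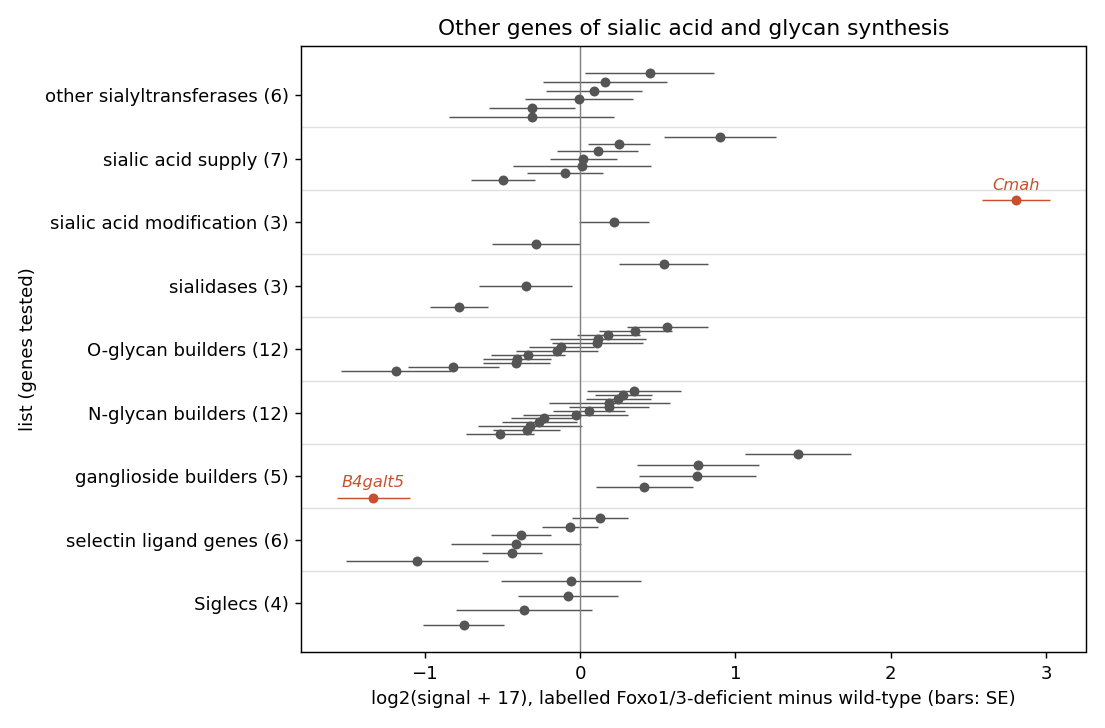
Log2(signal + 17) difference between the labelled-deficient and wild-type arrays for the 58 tested genes of the 9 lists of sialic acid and glycan genes, in 1 band per list; each point is 1 gene, bars are SE from limma over 2 arrays per label, and red marks an adjusted p under 0.05. Cmah at 2.81 and B4galt5 at -1.33 are the red points, and the other 56 are grey.

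In the O-glycan, N-glycan and selectin ligand lists, no gene was called between genotypes in the main fit. Of 12 O-glycan genes tested 0 were called (2 at an unadjusted p under 0.05 by limma, against 13% of all genes, and 1, Gcnt1, with the block). Gcnt1, which starts the core branch that selectin ligands grow on, read 446 and 877 in wild-type cells against 261 and 271 under the deficient label (log2 -1.19 ± 0.35, adjusted p = 0.160, and 0.00413 with the block). It passed without wild-type replicate 1 (0.0132). Galnt1, the brightest of the list, stood at -0.41 ± 0.22 (0.533). Of 12 N-glycan genes 0 were called (1 at an unadjusted p under 0.05, 0 with the block), and Man1a, the brightest, stood at 0.28 ± 0.18 (0.651).

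Of 6 selectin ligand genes 0 were called (0 at an unadjusted p under 0.05, 1 with the block). That one was Fut7, a fucosyltransferase gene, which read 187 and 416 against 90.2 and 175 (log2 -1.05 ± 0.46, limma adjusted p = 0.392, and 0.0298 with the block). Ptprc, which encodes the heavily sialylated CD45, stood at -0.06 ± 0.18 (0.960). Of 3 sialidase genes 0 were called (1 at an unadjusted p under 0.05, 1 with the block). Ctsa, the protease that protects the sialidase Neu1, read 4453 and 4344 against 2548 and 2570 (log2 -0.78 ± 0.19, adjusted p = 0.0854, and 0.00178 with the block). Of 4 Siglec genes 0 were called (1 at an unadjusted p under 0.05, 1 with the block): Cd22, a receptor of the sialic acid caps that St6gal1 makes, read 857 and 672 against 438 and 451 (log2 -0.75 ± 0.26, adjusted p = 0.236, and 0.0266 with the block). Over all 9 lists 1 gene rose and 1 fell of 58 tested, and 3 rose and 5 fell with the block, where the share of all genes called was 1.21% and 1.35%, and 5.23% and 6.36% with the block.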

How the data were processed

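Probe-set signals of 4 arrays, 1 per sample, were taken from the series' value table. Per the submitters' processing notes the authors made these deposited intensity values with MAS5, which subtracts background and scales each array on a linear scale; the sources used here do not give its version, settings or detection calls. No further scaling was applied. Of 45101 probe sets 64 were controls; the platform annotation gave 1 symbol for 34945, several for 932 and none for 9160, and symbols were updated by gene ID to RefSeq names.

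Values were taken as log2(signal + 17), 17 being the rounded 25th percentile of all values. Probe sets whose mean fell below the 40th percentile, a signal near 40.5, were dropped, and each gene was read from its brightest probe set, which left 12115 genes. The test between labels was limma's (version 3.58.1, R 4.3.3; lmFit and eBayes with an intensity trend, two-sided, Benjamini-Hochberg over all genes, threshold 0.05), and the code was tested on simulated data. The fit has 2 residual degrees of freedom, to which the variance model adds 5.69; with 2 arrays per label the smallest two-sided p of an exact test is 0.333. The labels do not say whether arrays came from separate animals, so p-values measure the spread between these arrays, and the number of arrays limits the precision.

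The titles call the shared number a pair. Deviations from the group means of same-numbered arrays correlated across genes with r = 0.367, over 2 pairs. The fit without the pair is the main one, and the block is an alternative.

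Genes named were the 10 members, every other sialyltransferase, the called and the brightest gene of each pathway list, and the 5 genes nearest to St8sia6. Ugcg, Gcnt1, Fut7, Siae and the listed marker genes were named beside that rule, after their values were seen. The members and lists were chosen with earlier results of these data known. Alternatives changed the pseudocount, the filter, the variance model, the normalization, the probe set of a gene, the block and the arrays used.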

Additional observations from a re-analysis of the deposited data

How the results depend on the processing

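The St8sia6 difference of log2 5.06 became 5.18 with a pseudocount of 1, 4.68 with the median (76) as pseudocount, 4.61 on the mean of its probe sets and 4.01 on its first-listed one, and ran from 5.03 to 5.08 when 1 array was left out. Of the other 9 genes, 98 alternative values of the genotype difference were computed, and 0 changed sign. A changed filter leaves a gene's value as it was, so some of the 98 could not change and nothing is read from the count. Leaving out 1 array moved the differences of St3gal1 (-0.63 to -0.0153), St3gal2 (-1.14 to -0.45), St3gal4 (-1.19 to -0.55) and St6gal1 (0.39 to 0.99) by over 1.5 times. The same held for St6galnac4 (-0.56 to -0.28), St6galnac6 (-1.34 to -0.73) and St8sia4 (-0.29 to -0.19). The St3gal6 difference of 1.46 became 1.04 with the median as pseudocount, 0.80 on the mean of its probe sets and 0.38 on its first-listed one. St6galnac4 went from -0.42 to -0.66 on the mean and -0.91 on the first-listed one. The 311 genes called between genotypes became 89 without the filter, 111 without the intensity trend and 1404 with the pair as a replicate block, and 149 to 544 when 1 array was left out (149 without labelled-deficient replicate 1, 176 without labelled-deficient replicate 2, 544 without wild-type replicate 1). The 2 calls among other sialic acid and glycan genes became 1 without the filter, 1 without the trend, 8 with the block and 1 to 4 when 1 array was left out. The 821 genes called between pairs became 346 without the filter, 393 on first-listed probe sets, 3 without the trend and 1 without the genotype term. On first-listed probe sets the pair difference turned to -0.30 for St8sia6, 0.15 for St8sia1 and -0.18 for St6gal1, and on the mean of probe sets to -0.0575 for St8sia6. The cause of these changes was not tested. With detection calls not analysed here, signals near the filter were not separated from absence.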
